A study of Mus musculus with 31 samples.

Results

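Retinoic acid is made and read in the developing pancreas by a small set of genes, and 9 of them are described here: the synthesis enzymes Aldh1a1, Aldh1a2 and Aldh1a3, the cytosolic binding proteins Crabp1 and Crabp2, the nuclear receptors Rara, Rarb and Rarg, and the degrading enzyme Cyp26b1. They were chosen by gene symbol, and all 9 were found among the 38283 genes of each expression table. RNA was measured by sequencing in cells sorted from pancreata of C57BL/6 mice at postnatal day 2, with YFP-positive cells taken as mesenchymal and YFP-negative cells as non-mesenchymal. Of 31 samples, 21 libraries had values here, in 6 groups. The Igf2 deletion model gave 4 non-mesenchymal control libraries (Igf2+/+; Nkx3.2Cre/+) and 3 mutant libraries (Igf2+/fl; Nkx3.2Cre/+). The H19DMD model, which the series describes as overexpressing Igf2, gave 3 control libraries (H19DMD+/+; Nkx3.2+/Cre) and 4 mutant libraries (H19DMDfl/+; Nkx3.2+/Cre) of each cell fraction. All groups, controls included, carry Cre at Nkx3.2, a gene of gut and pancreatic mesenchyme, so the alleles are recombined in the mesenchymal fraction and the non-mesenchymal cells of mutants are cells beside mutant mesenchyme. Mesenchymal cells of the Igf2 model were not analysed here. The controls are littermates, but the labels do not say whether a library comes from 1 animal, so p-values measure the spread between these libraries, which may be partly technical.

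Retinoic acid is made from vitamin A. Retinol is first oxidised to retinaldehyde, and the Aldh1a enzymes then oxidise retinaldehyde to retinoic acid, which Cyp26 enzymes break down. Crabp proteins carry it in the cytosol, and Rar proteins, paired with Rxr proteins, bind it in the nucleus and turn target genes on or off. In the embryonic pancreas the surrounding mesoderm and mesothelium are known sources of retinoic acid, made there by Aldh1a2, and the pathway is required for early dorsal pancreas formation and later endocrine differentiation.

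Values are FPKM, mapped fragments scaled for transcript length and library size, so levels can be compared between genes of a library. The labelled fractions were checked on their markers. The 13 mesenchymal markers summed to 5843 to 7497 FPKM in the mesenchymal libraries and 166 to 302 FPKM in the non-mesenchymal libraries of the H19DMD model. The 9 acinar markers ran the other way, at 547 to 1713 FPKM against 37450 to 101100 FPKM. Nkx3-2 was listed at 0 in the same non-mesenchymal libraries. It was low in the mesenchymal libraries too, averaging 0.440 FPKM in controls and 1.03 FPKM in mutants. As a check of the genotype labels, mesenchymal Igf2 was 3648 to 4024 FPKM in H19DMD controls and 6162 to 7923 FPKM in mutants. H19 was 2437 to 2454 FPKM in the same controls and 565 to 835 FPKM in the mutants.

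**Figure D1:**
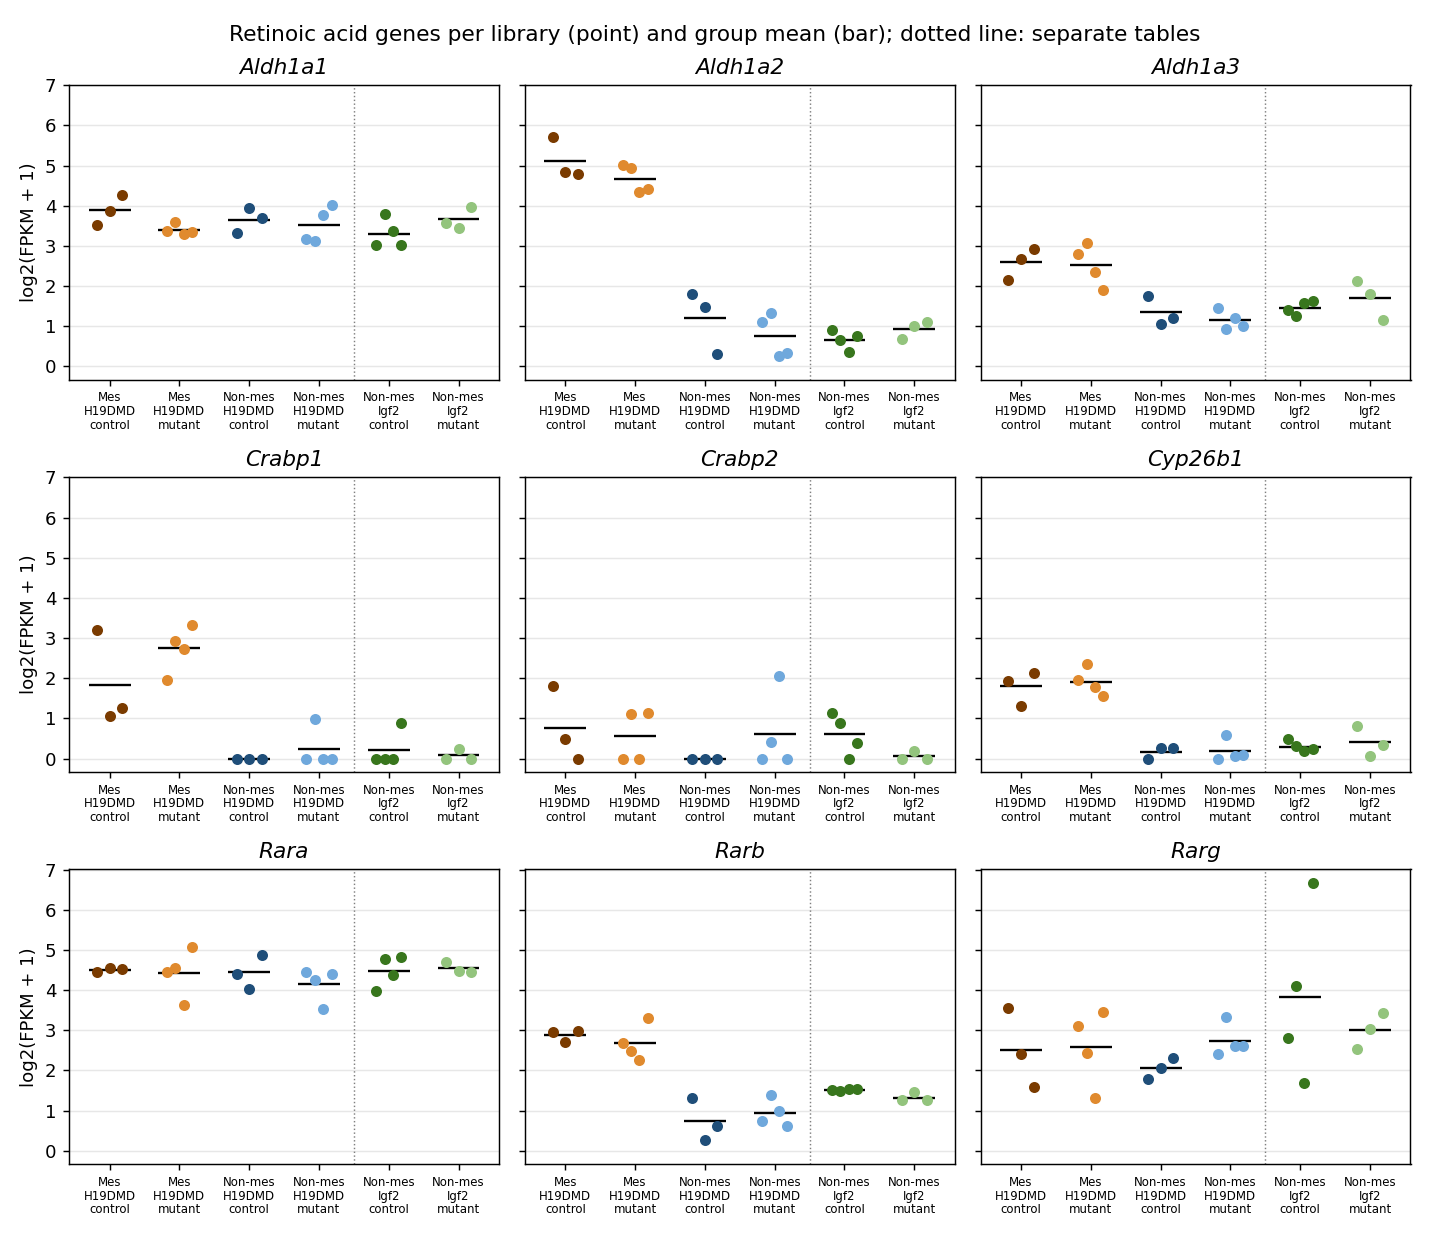
Level of each of the 9 genes in each library (point) and group mean (bar), as log2(FPKM + 1), for 6 groups; the dotted line separates the tables of the H19DMD and Igf2 models, which were normalised separately. Aldh1a2, Aldh1a3, Rarb and Cyp26b1 have every mesenchymal library above every non-mesenchymal library of the H19DMD table, while Rara and Aldh1a1 overlap across the groups, and 1 Igf2 model control stands at 101 FPKM for Rarg.

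Aldh1a2, the main retinoic acid synthesis enzyme of embryonic mesoderm (chr9:71215789-71296243, plus strand, GRCm38), was the member that differed most between the cell fractions on the log2(FPKM + 1) scale. In mesenchymal controls its level was 51.3, 27.5 and 26.7 FPKM, and in mesenchymal H19DMD mutants it was 31.2, 29.8, 19.3 and 20.3 FPKM. The matching non-mesenchymal cells had 2.50, 1.77 and 0.238 FPKM as controls and 1.15, 1.51, 0.196 and 0.267 FPKM as mutants. The fractions did not overlap in either genotype. The mean was 23.4-fold higher in mesenchymal than in non-mesenchymal controls, a difference of 3.92 ± 0.47 (SE) on the log2(FPKM + 1) scale with a 95% interval of 2.76 to 5.07 (limma, adjusted p = 0.00246 over all genes tested). In mutants it was 32.2-fold higher, a difference of 3.92 ± 0.31 (SE, adjusted p = 4.0e-05). These folds rest on low non-mesenchymal means. With 1 library left out the fold was 16.5 to 35.1 in controls and 25.7 to 46.8 in mutants, and these ranges overlap. In bulk libraries such as these, fewer cells of a type and less RNA per cell cannot be told apart. Non-mesenchymal Aldh1a2 stood at 4.28% of the mesenchymal mean in controls. The same percentage was 0 to 4.2% for 12 of the 13 mesenchymal markers, with Col1a1 at 0.935%, and 16.4% for Vim. The part of mesenchymal RNA in that Aldh1a2 signal was not tested. Between the fractions of controls, 6 of 9 mesothelial markers were called higher in mesenchymal cells and 2 lower (median difference 3.33). All 7 smooth muscle and pericyte markers were called higher (median 3.83). The part of these cell types in the Aldh1a2 difference was not tested. The Igf2 model's non-mesenchymal libraries, in their own table, held 0.288 to 0.865 FPKM in 4 controls and 0.603 to 1.15 FPKM in 3 mutants, below the level at which a gene was tested.

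Aldh1a3, a second retinaldehyde dehydrogenase (chr7:66390890-66427517, minus strand), was also higher in mesenchymal cells, at a lower level. Its controls had 3.47, 5.37 and 6.65 FPKM in the mesenchymal fraction and 2.39, 1.09 and 1.31 FPKM in the non-mesenchymal fraction. Its mutants had 5.94, 7.42, 4.10 and 2.72 FPKM against 1.74, 0.903, 1.29 and 1.03 FPKM. The groups were separate in both genotypes. The mean was 3.23-fold higher in controls (1.25 ± 0.32 (SE) on the log2 scale, adjusted p = 0.039) and 4.07-fold higher in mutants (1.38 ± 0.30 (SE), adjusted p = 0.00913). The control result is the less firm of the pair. It passed under 5 of 12 alternative analyses and missed the threshold with median-ratio scaling (1.13, adjusted p = 0.0655), without a filter on low values (adjusted p = 0.0598) without any one of mesenchymal controls 2 and 3 and non-mesenchymal controls 2 and 3 (adjusted p from 0.107 to 0.115) and with a replicate block (adjusted p = 0.115), whereas the mutant result passed in 14 of 14.

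Aldh1a1 (chr19:20492715-20643465, plus strand) did not separate the fractions. This cytosolic enzyme had 10.4, 13.5 and 18.4 FPKM in mesenchymal controls and 9.02, 14.3 and 11.99 FPKM in non-mesenchymal controls, and the groups overlapped. The difference was 0.23 on the log2 scale with a 95% interval of -0.44 to 0.90 (limma, adjusted p = 0.599). In mutants it was -0.13 with an interval of -0.66 to 0.41 (adjusted p = 0.725). Some caution applies to its reads, since 3.06% of the 50-base stretches of its exons also occur in Aldh1a7, a close copy on the opposite strand of the same chromosome. Aldh1a7 itself was lower in the mesenchymal fraction, at 0 to 0.599 FPKM over the 7 mesenchymal libraries and 1.57 to 4.82 FPKM over the 7 non-mesenchymal libraries (-2.09 on the log2 scale in controls, adjusted p = 0.00814, and -1.76 in mutants, adjusted p = 0.00552). It averaged under 1 FPKM in both mesenchymal groups and was tested only through its non-mesenchymal level.

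The enzymes made up different shares of the summed Aldh1a level in each fraction. Aldh1a2 held 51.6 to 78.7% of the FPKM summed over the 3 enzymes in mesenchymal controls and 59.99 to 67.0% in mesenchymal mutants. In non-mesenchymal libraries of the H19DMD model it held 1.38 to 18%, and in those of the Igf2 model 2.49 to 8.95%. Aldh1a1 led there instead, with 64.8 to 92.1% in the H19DMD table and 71.9 to 86.8% in the Igf2 table. Aldh1a3 stayed a minor part in both fractions, between 5.33 and 15.4% of the mesenchymal sum and between 6.24 and 17.2% of the non-mesenchymal sum of the H19DMD model. These shares are ratios within a library and do not depend on how libraries were scaled. The sum itself was 46.4 to 65.2 FPKM in mesenchymal controls, 32.1 to 48.2 FPKM in mesenchymal mutants, and 10.2 to 17.1 FPKM in the 7 non-mesenchymal libraries beside them.

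**Figure D2:**
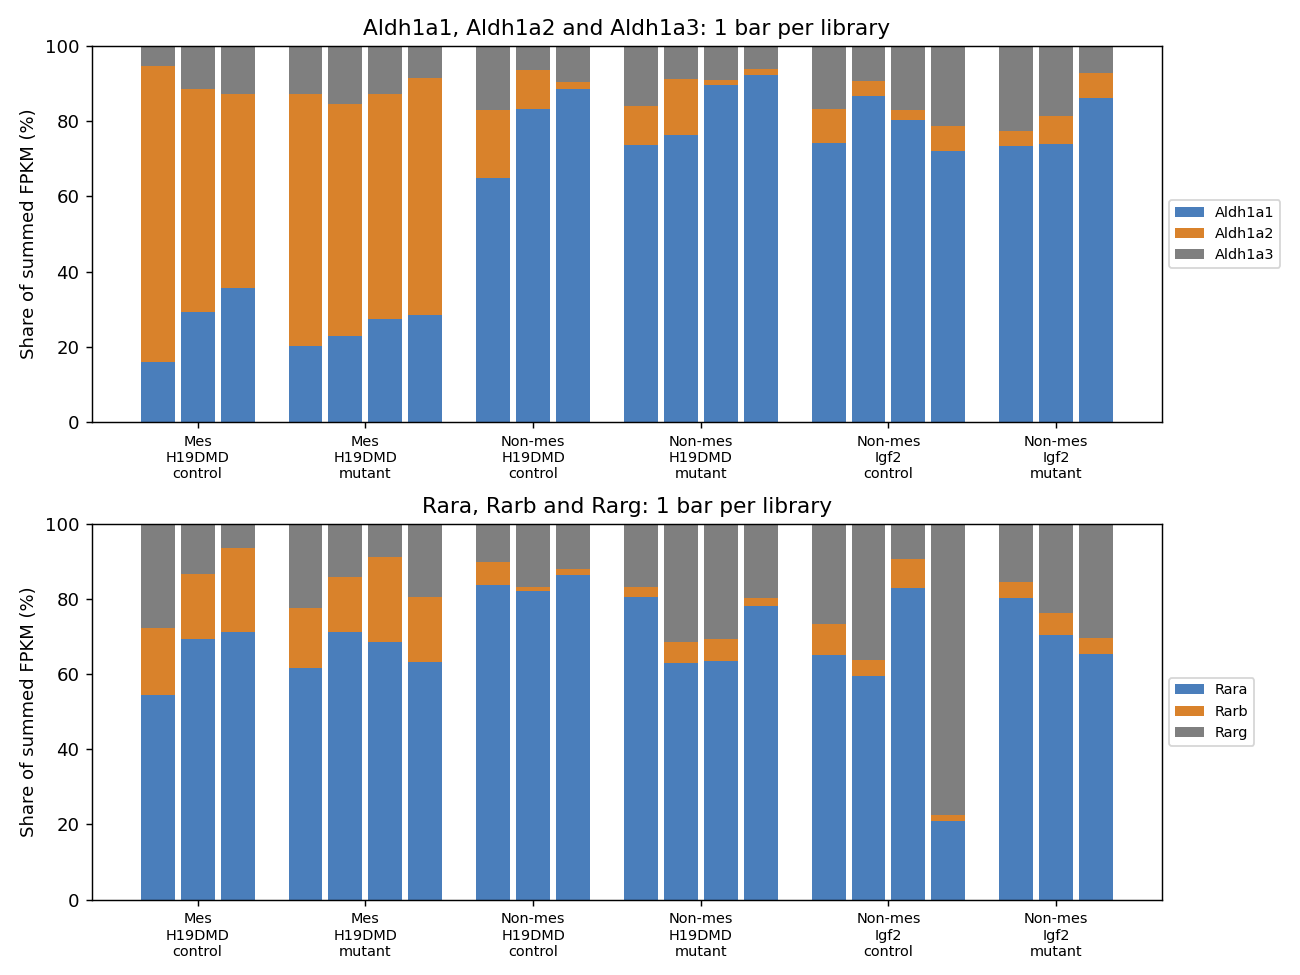
Share of each gene in the FPKM summed over Aldh1a1, Aldh1a2 and Aldh1a3 (top) and over Rara, Rarb and Rarg (bottom), in percent, with 1 bar per library grouped by cell fraction, model and genotype. Aldh1a2 holds at least 51.6% in every mesenchymal library and at most 18% in any non-mesenchymal library, and Rara is the leading receptor in all libraries but 1 Igf2 model control, where Rarg holds 77.6%.

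Of the binding proteins, Crabp1 (chr9:54764748-54773110, plus strand) was found mainly in mesenchymal cells and varied widely between libraries. It had 8.28, 1.07 and 1.39 FPKM in mesenchymal controls and 2.90, 6.65, 5.68 and 9.06 FPKM in mesenchymal mutants. It was listed at 0 in all 3 non-mesenchymal controls and in 3 of 4 non-mesenchymal mutants, the other having 0.992 FPKM. The fractions did not overlap. In mutants the difference was 2.49 ± 0.38 (SE) on the log2 scale (adjusted p = 0.00154), a call kept in 14 of 14 alternatives. No fold is given, since the non-mesenchymal controls are listed at 0 and the mutants' mean rests on 1 library. In controls the test missed the threshold (limma, adjusted p = 0.0908). It passed in 3 of 11 alternatives, with a pseudocount of 0.1 (adjusted p = 0.0289), with protein-coding genes only (0.031) and with the spread shared over all 4 groups (0.0215). Crabp2 (chr3:87948666-87953376, plus strand), which delivers retinoic acid to its receptors, was too low to test in any comparison. It was listed at 0 in 8 of the 14 libraries of the H19DMD model and reached at most 3.15 FPKM, in a non-mesenchymal mutant.

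Among the receptors, Rarb (chr14:16430839-16819156, minus strand), whose transcription retinoic acid itself induces in many tissues, was higher in the mesenchymal fraction. It had 6.78, 5.58 and 6.95 FPKM in mesenchymal controls and 1.498, 0.211 and 0.543 FPKM in non-mesenchymal controls. In mutants it had 5.47, 4.58, 3.76 and 8.95 FPKM against 0.664, 1.61, 0.995 and 0.526 FPKM. No non-mesenchymal library reached the lowest mesenchymal one. The mean was 8.58-fold higher in controls (2.15 ± 0.33 (SE) on the log2 scale, adjusted p = 0.00611) and 6.00-fold higher in mutants (1.75 ± 0.30 (SE), adjusted p = 0.0029), and both calls held in every alternative run (12 and 14). Without non-mesenchymal control 1, the library at 1.498 FPKM, the fold in controls was 17.1. In the GENCODE M21 annotation, 34.1% of the exonic bases of Rarb overlap exons of Top2b on the opposite strand, and the sources do not state whether strand was used in counting, so reads of Top2b could enter the value of Rarb. Top2b, a DNA topoisomerase gene, had 60.02 to 123 FPKM in the mesenchymal libraries and 62.1 to 95.6 FPKM in the non-mesenchymal libraries of the same table, and those ranges overlap. Its part in the Rarb values was not tested further.

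The promoter of Rarb carries the kind of element through which retinoic acid receptors act, and it is shown here because Rarb is the receptor that separates the fractions. Promoter sequences are from RefSeq on GRCm38.p6 and span 250 bases before to 50 bases after a gene's start. They held entries for 7 of the 9 members, and none for Aldh1a3 and Crabp2. A direct repeat named DR5, 2 half-sites on the same strand with 5 bases between them, was searched on both strands. A half-site was AGGTCA or the variant AGTTCA or the variant GGGTCA or the variant GGTTCA. It occurs in 32 of 32851 promoters (0.0974%). Of the 7 members searched it was found in Rarb alone, and of the 45 searched among the 67 pathway genes described below in Cyp26a1 alone, and no member promoter held the repeats with spacers of 1 base (found in 0.222% of promoters) or 2 bases (0.268%). Both matches are printed on the strand of their gene with the repeat in capitals. Each is shown with 6 bases on either side, which the coordinates include. The repeat of Rarb begins 53 bases before the start, within chr14:16575507-16575535 (minus strand), and overlaps an annotated Rarb exon in GENCODE. That of Cyp26a1, a second retinoic acid degrading enzyme, begins 32 bases before the start, within chr19:37697770-37697798 (plus strand), overlaps an annotated Cyp26a1 exon, and has its half-sites on the opposite strand.
Rarb: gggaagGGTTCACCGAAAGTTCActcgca
Cyp26a1: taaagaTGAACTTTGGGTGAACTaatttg
Cyp26a1 had at most 0.329 FPKM in any library of either table, and was listed at 0 in all mesenchymal controls. A match of letters is a description of the sequence and shows no binding.

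Rara (chr11:98927818-98974942, plus strand), the receptor found in most tissues, overlapped between the fractions. It had 20.96, 22.4 and 22.1 FPKM in mesenchymal controls and 20.2, 15.4 and 28.4 FPKM in non-mesenchymal controls. The difference was 0.07 on the log2 scale with a 95% interval of -0.53 to 0.67 (limma, adjusted p = 0.871), and with median-ratio scaling it was -0.06. In mutants the difference was 0.27 with an interval of -0.50 to 1.04 (adjusted p = 0.586). Rarg (chr15:102234938-102257517, minus strand) overlapped between the fractions as well, with a wide spread between libraries. Its mesenchymal controls had 10.7, 4.27 and 2.03 FPKM and its mesenchymal mutants 7.61, 4.43, 1.47 and 9.99 FPKM, against 2.46, 3.15 and 3.94 FPKM and 4.35, 9.03, 5.09 and 5.09 FPKM in the non-mesenchymal groups. Its fraction differences, 0.46 in controls (interval -0.78 to 1.71) and -0.16 in mutants (interval -1.23 to 0.90), did not pass. Of the FPKM summed over the 3 receptors, Rara held 54.6 to 71.3% in mesenchymal libraries and 62.9 to 86.4% in non-mesenchymal libraries of the H19DMD model. Rarb held 14.6 to 22.6% and 1.12 to 6.19% in the same libraries, without overlap, and Rarg 6.52 to 27.8% and 10.2 to 31.5%.

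Cyp26b1 (chr6:84571414-84593908, minus strand), which clears retinoic acid and is itself often induced by it, was low in all groups and higher in mesenchymal cells. It had 2.84, 1.49 and 3.37 FPKM in mesenchymal controls and 2.85, 4.12, 2.42 and 1.97 FPKM in mesenchymal mutants. The non-mesenchymal libraries ranged from 0 to 0.194 FPKM in controls and from 0 to 0.496 FPKM in mutants, so the fractions did not overlap. The mean was 20.0-fold higher in controls (1.63 ± 0.34 (SE) on the log2 scale, adjusted p = 0.0186) and 18.5-fold higher in mutants (1.72 ± 0.29 (SE), adjusted p = 0.00271). These folds rest on non-mesenchymal means near 0. With 1 library left out the fold was 13.3 to 26.8 in controls, and without non-mesenchymal mutant 2 it was 71.9 in mutants. The control call was lost without mesenchymal control 1 (1.55, adjusted p = 0.0663) and with a replicate block (adjusted p = 0.0701), and without mesenchymal control 3 the gene was not tested.

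Taking the members as a list, 4 of the 8 that could be tested were called higher in mesenchymal controls (Aldh1a2, Aldh1a3, Rarb and Cyp26b1), against 12.4% of the 16732 genes tested, and none lower. Without mesenchymal control 3 the count was 2, with Aldh1a3 past the threshold no longer (adjusted p = 0.114) and Cyp26b1 below the level at which a gene was tested. In mutants 5 of 8 were called higher, Crabp1 included, against 13.5% of 16767 genes. The same 5 members lay above every non-mesenchymal library in both genotypes, as did 22.4% of all genes tested in controls and 14.4% in mutants. Crabp1, Rarb and Cyp26b1, and in mutants Aldh1a2 as well, averaged under 1 FPKM in non-mesenchymal cells and entered the tests only through their mesenchymal level. A difference between fractions was thus built into most of the members called, and the counts are descriptions. The median difference of the tested members was 1.44 in controls and 1.55 in mutants on the log2 scale, beside 0.08 and -0.03 for all genes tested. In controls, median-ratio scaling moved the median of all genes from 0.08 to -0.04, and no called member changed direction.

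**Figure D3:**
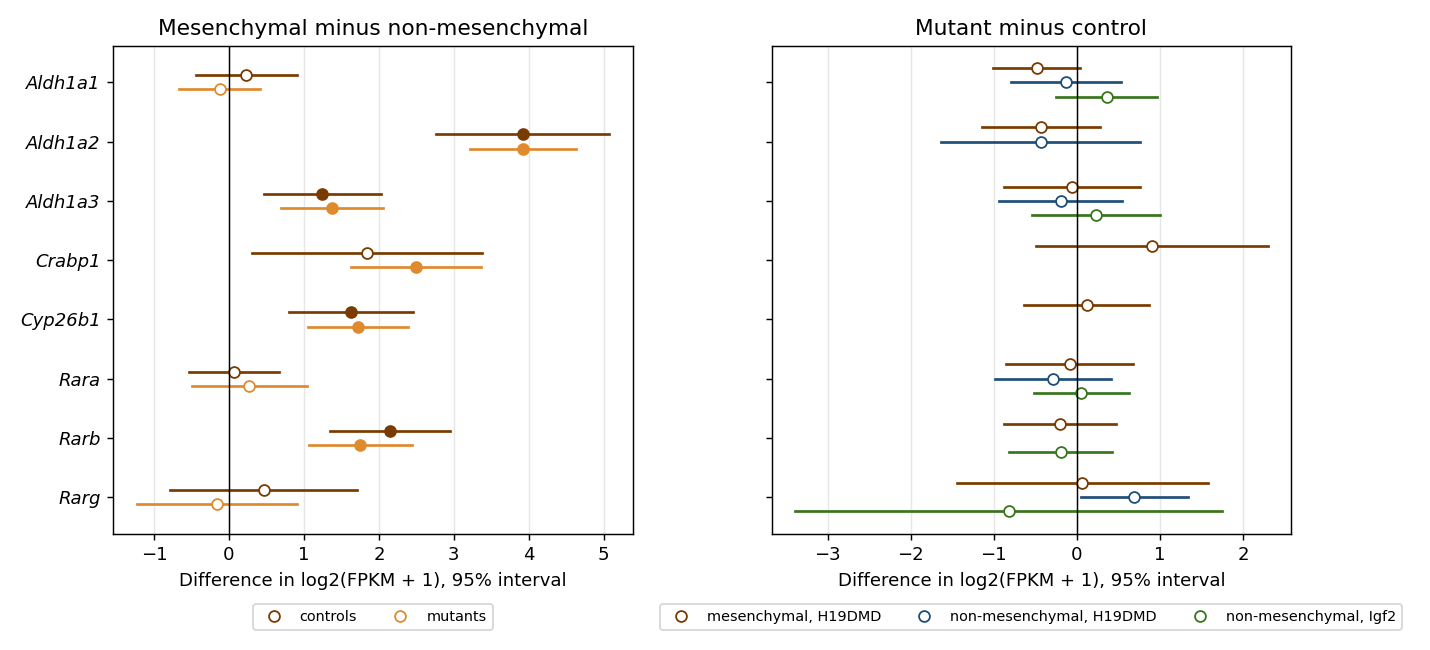
Difference in log2(FPKM + 1) with its 95% interval for the members that could be tested, between fractions (left: controls and mutants of the H19DMD model) and between genotypes (right: 3 comparisons); filled points passed an adjusted p of 0.05. On the left Aldh1a2 lies at 3.92 in both genotypes and 5 members are filled in mutants, while on the right no point is filled.

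The size of the fraction difference was compared between genotypes by an interaction term over the 14 libraries of the H19DMD model, and none of the 8 tested members passed it (limma, lowest adjusted p = 0.885, none with an unadjusted p under 0.05, against 0.0117% of genes called). The interval of that change was -1.22 to 1.22 for Aldh1a2, -0.81 to 1.08 for Aldh1a3, -0.90 to 2.202 for Crabp1, -1.36 to 0.57 for Rarb and -0.81 to 1.01 for Cyp26b1. The intervals of Rarg and Crabp1 were the widest of the list. H19, at the targeted locus, did not pass the interaction test either (limma, -1.55, adjusted p = 0.448).

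In mesenchymal cells themselves, where the H19DMD allele is recombined, no member passed the test between mutants and controls. The 8 tested members had adjusted p-values of 0.927 or more and none an unadjusted p under 0.05, with 0.0694% of 15856 genes called, and in no member did the groups separate (5.39% of genes). Igf2, at the targeted locus, was higher in every mutant than in every control. It was called in 0 of 13 alternative analyses (limma, adjusted p of 0.694 or more). H19 was called in 3 of 12, and with any library left out it missed the threshold (adjusted p of 0.0618 to 0.143). The test thus missed a change at the targeted locus, and uncalled members may also have changed. Aldh1a2 averaged 35.2 ± 13.97 FPKM (SD, n = 3) in controls and 25.1 ± 6.19 FPKM (SD, n = 4) in mutants, a difference of -0.44 on the log2 scale with a 95% interval of -1.15 to 0.28. Without control 1, the library at 51.3 FPKM, that difference was -0.14. Aldh1a1 averaged 14.1 ± 4.04 FPKM (SD, n = 3) and 9.58 ± 0.998 FPKM (SD, n = 4), a difference of -0.48 with an interval of -1.01 to 0.04. Without control 3 it was -0.29. Crabp1 had the widest interval of the list bar Rarg, 0.90 with -0.49 to 2.29, and its difference was 1.59 without control 1 and 0.51 without control 2. Rara, Rarb and Aldh1a3 had differences between -0.20 and -0.06, and Rarg and Cyp26b1 of 0.06 and 0.12.

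Markers of other cell types were summed in the mesenchymal libraries too, among them those of mesothelium, the lining of the organ and a known site of Aldh1a2 expression. The 9 mesothelial markers summed to 385, 182 and 187 FPKM in mesenchymal controls 1 to 3 and to 157, 174, 117 and 119 FPKM in mutants 1 to 4, so every mutant lay below every control. The control with the highest sum, 385 FPKM, was also the one with the highest Aldh1a2, 51.3 FPKM. Of the 9 markers, 8 had a lower mean in mutants, none passed the test (adjusted p of 0.927 or more), and Msln, Upk1b and Lrrn4 did not overlap between the groups. Wt1, a mesothelial transcription factor, averaged 57.1 FPKM in controls and 58.5 FPKM in mutants. Krt19, also on the mesothelial list, is a duct marker as well. Of the 7 smooth muscle and pericyte markers, 6 were lower in mutants as well, with a median difference of -0.79 and none called, and their sums overlapped at 483 to 820.5 FPKM in controls and 147 to 747 FPKM in mutants. The part of mesothelial or smooth muscle content in the Aldh1a2 values was not tested.

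**Figure D4:**
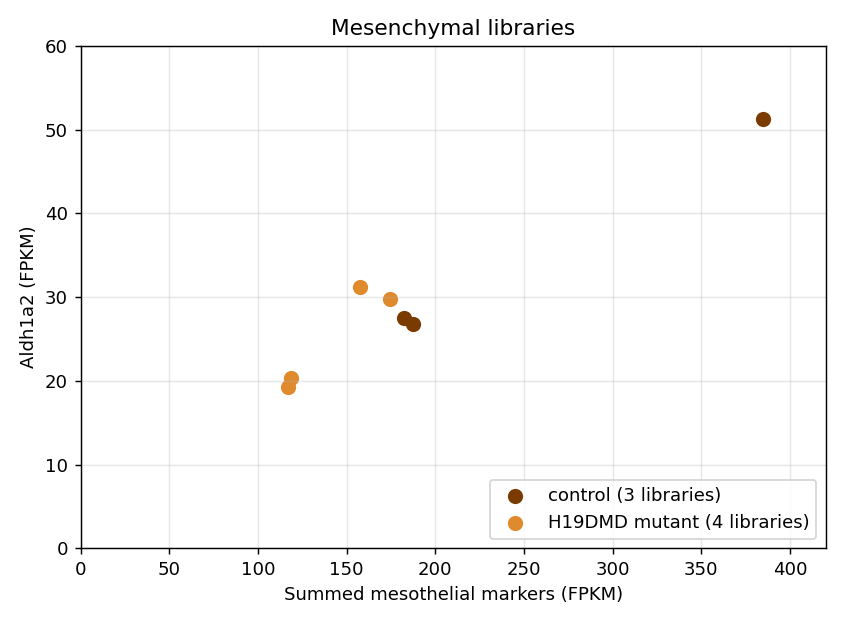
Aldh1a2 (FPKM) against the summed level of 9 mesothelial markers (FPKM) in the 7 mesenchymal libraries of the H19DMD model, 1 point per library. Controls lie at 182 to 385 FPKM of markers and mutants at 117 to 174 FPKM, and the highest Aldh1a2 value, 51.3 FPKM, belongs to the control with the highest marker sum.

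In non-mesenchymal cells beside H19DMD mutant mesenchyme, 5 members were high enough to test and none passed (limma, adjusted p of 0.894 or more, 0.0677% of 16239 genes called). Rarg had an unadjusted p of 0.0392 and its groups did not overlap, with 3.19 ± 0.737 FPKM (SD, n = 3) in controls and 5.89 ± 2.12 FPKM (SD, n = 4) in mutants, where 5.68% of all genes showed such separation. Its difference was 0.69 on the log2 scale with an interval of 0.05 to 1.33. Markers of other cell types were summed in the same libraries. The 9 endocrine markers summed to 19880 to 29960 FPKM in controls and 11250 to 20470 FPKM in mutants, and the 6 erythroid markers to 115.5 to 405.9 FPKM and 137.7 to 1573 FPKM, so both sums overlapped between the groups and no marker of either list was called. The difference was positive for 1 of the 9 endocrine markers (median -0.33) and 6 of the 6 erythroid markers (median 1.59). Ins1 and Gcg were lower in mutants without overlap. The difference was also positive for 7 of 7 ductal markers (median 0.33), with Krt19 not overlapping and none called. The part of these cell types in the Rarg values was not tested. Aldh1a2, Rara, Aldh1a3 and Aldh1a1 had differences of -0.44, -0.29, -0.19 and -0.13. Rarb, Cyp26b1 and both Crabp genes averaged under 1 FPKM and were not tested.

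In non-mesenchymal cells beside Igf2-deleted mesenchyme, again 5 members were tested and none passed (limma, adjusted p of 0.919 or more, none with an unadjusted p under 0.05, 0.0631% of 17441 genes called). Rarb had 1.39, 1.74 and 1.39 FPKM in mutants and 1.85, 1.81, 1.90 and 1.91 FPKM in controls, so that every mutant lay below every control, as 3.37% of genes did. The difference was -0.20 with an interval of -0.81 to 0.42. The 9 acinar markers summed to 28160 to 40270 FPKM in these controls and 81710 to 94310 FPKM in the mutants, without overlap, and 7 of the 8 tested were higher on average in mutants with none called. Their part in the Rarb values was not tested. Aldh1a1 differed by 0.36 (interval -0.25 to 0.97), Aldh1a3 by 0.23 (-0.54 to 1.01) and Rara by 0.06 (-0.52 to 0.63). Rarg had 4.78, 7.19 and 9.75 FPKM in mutants and 6.03, 16.1, 2.23 and 101 FPKM in controls, where control 4 stood above all other libraries with values. Its difference of -0.82 turned to 0.13 without that library.

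The order of the members by mean level differed between the fractions. In mesenchymal controls Aldh1a2 came first at 35.2 FPKM, followed by Rara at 21.8 ± 0.774 FPKM (SD, n = 3) and Aldh1a1 at 14.1 FPKM, and these 3 did not overlap with the next in the order. Rarb, Rarg, Aldh1a3, Crabp1, Cyp26b1 and Crabp2 followed, from 6.44 down to 0.975 FPKM, each overlapping its neighbour. In mesenchymal mutants Aldh1a2 and Rara overlapped, at 25.1 and 21.8 FPKM. In the non-mesenchymal groups of the H19DMD model Rara led at 21.4 ± 6.56 FPKM (SD, n = 3) in controls and 17.4 ± 4.67 FPKM (SD, n = 4) in mutants. Aldh1a1 was the next at 11.8 and 10.9 FPKM, overlapping Rara in mutants only, and Rarg came after it, overlapping Aldh1a1 in mutants only, with the other 6 members averaging 1.60 FPKM or less. The Igf2 table gave Rara 22.1 ± 5.98 FPKM (SD, n = 4) in controls and 22.4 ± 2.18 FPKM (SD, n = 3) in mutants, values set beside those of the other table without a test. Rarg had the highest mean of the Igf2 controls, 31.4 ± 46.9 FPKM (SD, n = 4), through control 4.

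Around these members, 67 other genes of vitamin A handling and response were listed, and 47 could be tested between the fractions in controls. Of them 13 were higher and 9 lower in mesenchymal cells, where 22.6% of all genes were called in either direction. In mutants 12 were higher and 13 lower of 46 tested, against 28.6%. No gene of the list passed in the 3 genotype comparisons or the interaction. The list for retinol supply and storage divided sharply, with 3 of 7 tested genes higher and 3 lower in controls. Lrp1 and Lpl, which take part in cellular uptake of retinoid-carrying lipoproteins, were higher by 4.07 and 3.05 on the log2 scale in controls (adjusted p = 4.8e-04 and 2.1e-04) and by 3.03 and 3.33 in mutants. The plasma carriers of retinol, Rbp4 and Ttr, were lower by -4.86 and -6.80 in controls and by -5.36 and -7.54 in mutants. Ttr ranged between 0.298 and 3.38 FPKM in mesenchymal controls, against 188 to 368 FPKM outside the mesenchyme. Ttr and Rbp4 are also expressed by islet endocrine cells, whose 9 markers summed to 53.5 to 228 FPKM in mesenchymal and 19880 to 29960 FPKM in non-mesenchymal controls.

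Among the enzymes of the steps before Aldh1a, 2 of 9 tested genes were called higher in mesenchymal controls and none lower, and in mutants 1 was called higher and 2 lower. These counts are near the shares of all genes called, 22.6% and 28.6%. The lower pair, Adh5 (-0.64, adjusted p = 0.0283) and Dhrs4 (-0.87, adjusted p = 0.0425), is not covered by the rule for named genes and was chosen after its values were seen. Rdh10, which makes retinaldehyde from retinol and supplies the Aldh1a enzymes in the embryo, ranged from 12.7 to 26.9 FPKM in the mesenchymal fraction of controls and from 2.40 to 5.52 FPKM in the other, a difference of 2.07 ± 0.37 (SE, adjusted p = 0.0106). In mutants it was 2.09 ± 0.35 (SE, adjusted p = 0.00262). Akr1b8, an aldo-keto reductase that can turn retinaldehyde back to retinol, was higher by 2.23 in controls (adjusted p = 0.00453), where it averaged 0.416 FPKM in non-mesenchymal cells and was tested only through its mesenchymal level. In mutants its difference of 0.78 did not pass (adjusted p = 0.367), and without mesenchymal mutant 3, which had 0.390 FPKM, it was 1.40 (adjusted p = 0.01). The other degrading enzymes, Cyp26a1 and Cyp26c1, were too low to test. None of the 10 tested corepressors and coactivators was called in controls (limma), and in mutants Ep300, a histone acetyltransferase named here after its values were seen, was lower by -0.54 (adjusted p = 0.0331).

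Genes described elsewhere as responsive to retinoic acid went both ways. Of 15 tested, 8 were higher and 5 lower in mesenchymal controls, and 8 higher and 6 lower in mutants, with a median difference of 1.10 and 0.95 on the log2 scale. Of all genes tested, 22.6% were called in either direction in controls and 28.6% in mutants. Rarres2, which encodes the secreted protein chemerin, had 149 to 323 FPKM in mesenchymal and 2.03 to 9.89 FPKM in non-mesenchymal controls, a difference of 5.02 (adjusted p = 0.00167). Nr2f2, a mesenchymal nuclear receptor, was higher by 3.5 (adjusted p = 5.7e-04) and the homeobox gene Hoxb4 by 2.31 (adjusted p = 0.00167). The phospholipase gene Plaat3 was lower by -2.76 (adjusted p = 0.003). Hoxb4 and Plaat3 averaged under 1 FPKM in the fraction where they were low and were tested only through the other. These last 4 genes were called in the same direction in mutants. Several genes on this list are also markers of cell types, and the part of retinoic acid or of cell makeup in the counts was not tested.

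**Figure D5:**
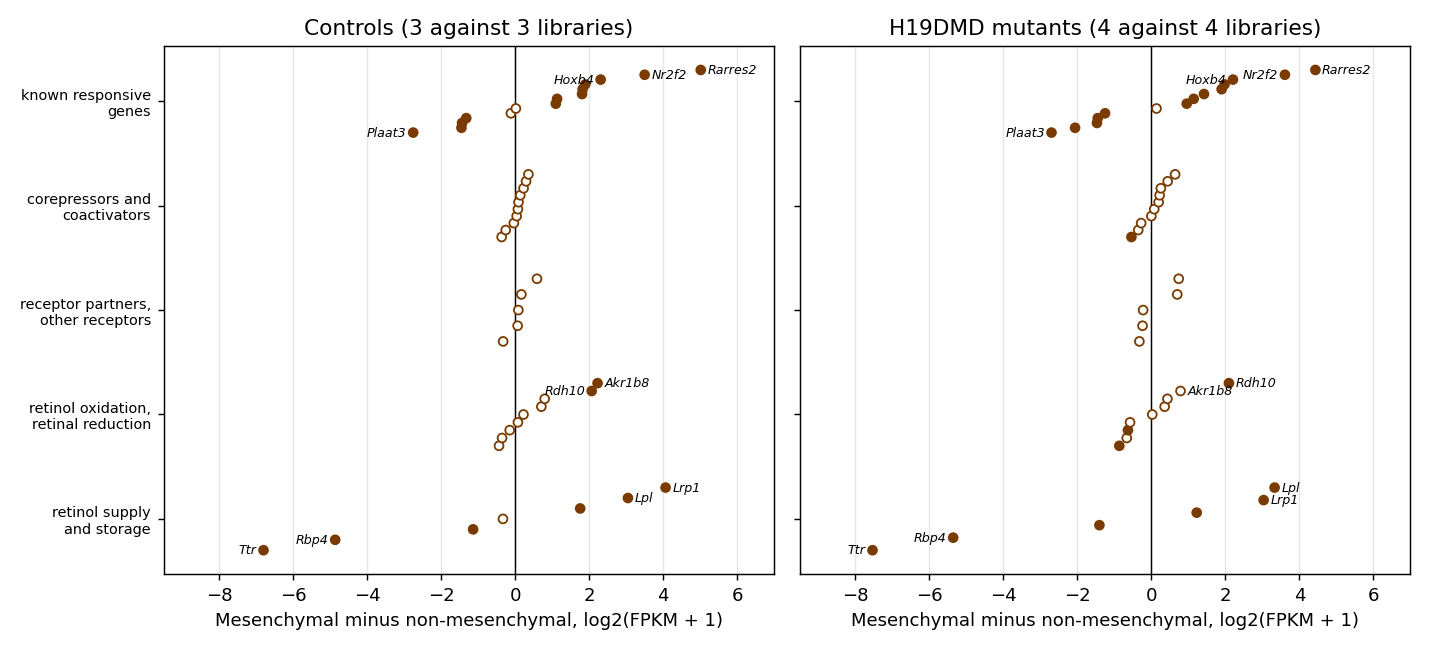
Mesenchymal minus non-mesenchymal difference in log2(FPKM + 1) of tested genes of 5 retinoid lists, 1 point per gene except for genes not reported here, in controls (left) and H19DMD mutants (right); filled points passed an adjusted p of 0.05, and genes named in the text are labelled. In controls the extremes run from Ttr at -6.80 to Rarres2 at 5.02, and in mutants Ttr lies at -7.54. None of the corepressors and coactivators is filled in controls, against 1 in mutants.

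For each member, the 3 genes with the most similar pattern were found by Pearson's r of log2(FPKM + 1) over the 14 libraries of the H19DMD model, among 14136 genes. All points share the split between fractions, so these are descriptions. The closest to Aldh1a2 were Sulf1 (r = 0.994), Fmod (0.987) and Tcf21 (0.985), which encode an extracellular sulfatase, a collagen-binding proteoglycan and a mesenchymal transcription factor. Rarb was closest to Wnt2b (0.974), Cyth3 (0.973) and Adamts4 (0.973), and Cyp26b1 to Emilin3 (0.983), Klhl29 (0.98) and Zfp503 (0.978). Aldh1a3 was closest to Sesn3 (0.955), Foxp2 (0.95) and Ism1 (0.945), and Crabp1 to Lrch3 (0.953), Urm1 (0.941) and Lrrc41 (0.931). Rara was closest to Cant1 (0.902), Ppfia1 (0.848) and Ampd2 (0.847), and Rarg to Zdhhc4 (0.866), Alad (0.845) and Renbp (0.84). Aldh1a1 was closest to Rimklb (0.874), the microRNA gene model mmu-mir-5123 (0.817) and Baat1 (0.812), and Crabp2 to Slc16a3 (0.801), a U1 snRNA gene model (0.768) and Dcun1d5 (0.763).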

How the data were processed

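The authors deposited 1 table of FPKM values per model, a unit given per the file headers. TopHat2 2.0.8, Cufflinks 2.2.1 and GRCm38 are named in the submitters' processing notes, with no role given. Annotation, strand use and scaling are not given in the sources used here. Per the labels' protocols, 2 ng of total RNA was amplified with the Ovation RNA-seq System V2 and read as single 50-base reads. The value columns of the 2 tables carry different library identifiers in the file headers, whose meaning no source gives, so what these mark cannot be told apart from the model and every test stayed within a table.

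Differences were tested with limma 3.58.1 in R 4.3.3 (two-sided, variance trend) on log2(FPKM + 1), leaving out any gene that averaged under 1 FPKM across the groups of a comparison, with Benjamini-Hochberg adjustment over all genes tested and a threshold of 0.05. A difference on this scale understates the change of low genes, so folds are ratios of mean FPKM. The procedure was also run on simulated data, whose outcome is not reported here and is not used to judge the calls. Read counts are unknown. Judged by the spacing of low values, relative depth spanned 2.61-fold in the Igf2 table and 2.23-fold in the H19DMD table. Replicates had Pearson's r of 0.947 to 0.965 over protein-coding genes. Per group, 2 to 10 coding genes whose median exceeded 10 FPKM had a library listed at 0, so a 0 can be a failed estimate. Members were matched by symbol, and positions are those of GENCODE M21. The genes named beside the members follow a rule: pathway genes past the threshold between fractions in controls with an absolute log2 difference of at least 2 (at most the 5 largest per list and direction), any past it between genotypes, and the 3 most similar genes per member. The members and lists were chosen with earlier results of these data known. Same-numbered replicates were treated as unpaired (r of deviations -0.051 to 0.067), though these values do not exclude a pairing. Not analysed here were 10 samples. Some genes that meet the rule are not reported here.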

Additional observations from a re-analysis of the deposited data

Results flagged for a closer look

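In groups of 4 libraries, 36 combinations of gene and group were examined for a library far from the other 3 (by Dixon's gap test), and chance marks about 1 in 20 such groups for normally spread values. There were 7 such combinations, from 4 libraries, each with the highest value of its group. Where 3 libraries are listed at 0, as for Crabp1, any value above 0 stands apart by construction. Rarg stood at 101 FPKM in control 4 of the Igf2 model against 2.23 to 16.1 FPKM in the other controls, and at 9.03 FPKM in a non-mesenchymal H19DMD mutant. In the same H19DMD group, the highest values were 0.992 FPKM for Crabp1, 3.15 FPKM for Crabp2 and 0.496 FPKM for Cyp26b1. Non-mesenchymal mutant 2 gave the high values of Rarg, Crabp1 and Cyp26b1. Among Igf2 model controls, Crabp1 was 0.846 FPKM in control 4, the others being listed at 0, and Igf2 reached 144 FPKM.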

How the results depend on the processing

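Of the values for single genes under other settings, 431 kept their direction and side of the threshold, 5 reversed, 3 gained and 6 lost the call, and with a library left out 561 kept both, 38 reversed, 1 gained and 12 lost it. The cause was not tested. Called genes in the interaction, 2 as reported, were 6 without a filter, 6 with a pseudocount of 0.1 and 0 among protein-coding genes. Mesenchymal mutants against controls gave 11 genes as reported, 5 with all groups in 1 fit and 0 among protein-coding genes. Non-mesenchymal cells of the H19DMD model gave 11, then 1 and 1 under the same settings, and those of the Igf2 model 11 and 0 among protein-coding genes. Median-ratio scaling gave Rara a level of 20.3 FPKM in mesenchymal controls (21.8 as reported), a fraction difference of -0.0644 there, and Aldh1a3 a mesenchymal genotype difference of 0.0057. The median of all genes in the interaction moved by 0.11 under that scaling.

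Whether same-numbered replicates are pairs was not settled. Between fractions, r of their deviations was 0.017 to 0.067 in controls and 0.007 to 0.042 in mutants, small but all above 0. Differently numbered replicates had r of -0.043 to 0.023 and -0.051 to 0.031. Between genotypes, same-numbered replicates had r of -0.051 to 0.033. A replicate block gave 2 members called between fractions in controls in place of 4, with Aldh1a3 at an adjusted p of 0.115 and Cyp26b1 at 0.0701, and 7, 5 and 2 genes in the mesenchymal H19DMD, non-mesenchymal H19DMD and Igf2 comparisons of genotype. In that fit Rarg was 0.13 in the Igf2 comparison and -0.23 in mesenchymal cells, and Aldh1a3 was 0.15 there, the same values as without the library that has no same-numbered partner (control 4 and mutant 4).

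With 1 library left out, called genes ranged from 14 to 37 in the Igf2 comparison, from 13 to 27 and from 14 to 34 in mesenchymal and non-mesenchymal H19DMD genotypes and from 2 to 9 in the interaction, and called members in controls from 2 to 4. A lone library was never left in a group. Reversals were limited to uncalled differences. Between fractions, Rara ranged from -0.13 to 0.29 and Rarg from -0.0512 to 0.92 in controls, and Aldh1a1 from -0.26 to 0.0363 and Rarg from -0.46 to 0.26 in mutants. In the interaction, Aldh1a2 ranged from -0.30 to 0.45, Aldh1a3 from -0.0789 to 0.35, Cyp26b1 from -0.14 to 0.26, Igf2 from -0.50 to 0.0912 and Rara from -0.0185 to 0.46. In mesenchymal genotypes, Aldh1a3 ranged from -0.27 to 0.15, Cyp26b1 from -0.12 to 0.28, Rara from -0.30 to 0.18 and Rarg from -0.39 to 0.58. In non-mesenchymal H19DMD genotypes, Aldh1a1 ranged from -0.29 to 0.0122 and Aldh1a3 from -0.34 to 0.0142. In the Igf2 comparison, Igf2 ranged from -1.13 to 0.12, Rara from -0.12 to 0.17 and Rarg from -1.53 to 0.13. Unknown read counts limit the precision of values near 0, above all those of Crabp1, Crabp2 and Cyp26b1.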
